A study of Rattus norvegicus with 5 samples.

Results

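The genes of the epithelial cell-cell junctions, the keratins and a few brush border proteins were followed in the small intestine of rats under graded calorie restriction (CR). The genes were chosen by name: every gene probe (an Affymetrix probe set) with 1 annotated symbol beginning with Cldn, Krt, Tjp or Gjb and a digit, together with Ocln, F11r, Cgn, Cdh1, Cdh17, Ctnna1, Ctnnb1, Ctnnd1, Jup, Dsp, Dsg2, Epcam, Vil1, Ezr, Myo1a, Cdhr2 and Cdhr5. This gave 52 gene probes of 45 genes out of 15866 gene probes on the array, and 4 of the names (Cgn, Dsg2, Vil1 and Myo1a) had no gene probe with a single symbol. The rule itself used names and no expression value, but the genes were chosen with earlier results of these data known. Of the 52, 28 gene probes of 25 genes lay at or above the median mean log2 signal of all gene probes, a signal of 46.5, and were tested with the 7933 gene probes so kept. All 28 had a signal of 65.0 or more on every array, so none was kept through one diet alone.

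The study asked which genes respond to mild as well as to stronger energy restriction. Male Wistar rats, 6 weeks old at the start, received the recorded daily intake of freely fed rats in full (control) or cut by 5, 10, 20 or 30% for 1 month and were fasted for 16 h before the small intestine was taken. RNA from 5 rats was pooled at each level and hybridized to 1 rat 230A array, so that there were 5 arrays and no replicate at any level. Neither the labels nor the methods name the segment or the layers of the intestine that were taken.

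The absorptive cells of the gut form a single sheet, sealed near the lumen by tight junctions, in which claudins and occludin join neighbouring cells and zonula occludens proteins tie them to actin. Below lie the adherens junctions, built on E-cadherin and the catenins, the desmosomes, which anchor keratin filaments, and the gap junctions, channels made of connexins. The keratins of simple epithelia, Krt8, Krt18, Krt19 and Krt20, fill the cell body, and cadherins on the microvilli link these into the ordered brush border.

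The 5 arrays had the same trimmed mean signal of 132, and their log2 signals over the kept gene probes correlated at 0.971 to 0.988. The 3'/5' signal ratio of the beta-actin control probes was 3.18 on the 20% CR array and 2.20 to 2.41 on the other 4, while that of Gapdh was 1.21 to 1.40 on all 5. All 7 kept gene probes of the absorptive enterocyte markers had their highest signal on the 20% CR array. With another gene probe of Apob that was below the filter, the 8 gene probes of these markers had a summed signal of 8852 in the control, 11130 at 5%, 10471 at 10%, 14413 at 20% and 10463 at 30% CR. Much of this sum was Fabp1, with 4065 in the control and 6468 at 20% CR, and Fabp2, with 983.8 and 2383. The markers of stratified squamous epithelium (4 gene probes of 3 genes) summed to 25.2 on the 20% CR array and to 24.6 to 45.1 on the other 4, with each gene probe below the filter.

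The junction and keratin genes differed little between the diets, as did most kept gene probes. The median absolute log2 ratio of the 28 was 0.14 at 5%, 0.12 at 10%, 0.22 at 20% and 0.18 at 30% CR. That of all kept gene probes was 0.18, 0.16, 0.18 and 0.21. None of the 28 kept gene probes passed the test of the 4 CR pools against the control pool (limma with Benjamini-Hochberg adjustment), nor did any of the 7933 (0% called). At an unadjusted limma p below 0.05, 1 of the 28 was higher under CR (Cldn3, 3.57%) and 1 was lower (Cldn12, 3.57%), against 2.71% higher and 2.05% lower among all kept gene probes. The mean log2 ratio of the CR arrays to the control array lay between −0.45 and 0.36, and 23 of the 28 were within 0.25 of 0. The share of all kept gene probes within that bound is not given here. No gene probe reached a log2 ratio of 1 in either direction at any level, against 0.58% of all kept gene probes at 5%, 0.668% at 10%, 1.13% at 20% and 1.08% at 30% CR. None reached 0.5 in the same direction at all 4 levels, where 0.769% of all kept gene probes were higher and 0.34% lower. In the trend over the restriction percent, 0 of the 28 passed the test and 0 had an unadjusted limma p below 0.05, against 1.55% rising and 1.54% falling among all. The same sign at all 4 levels was seen for 8 higher gene probes (28.6%, against 19% of all) and 4 lower ones (14.3%, against 20.6% of all). All 4 ratios share 1 control array, and p-values measure only the spread among these pools.

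**Figure D1:**
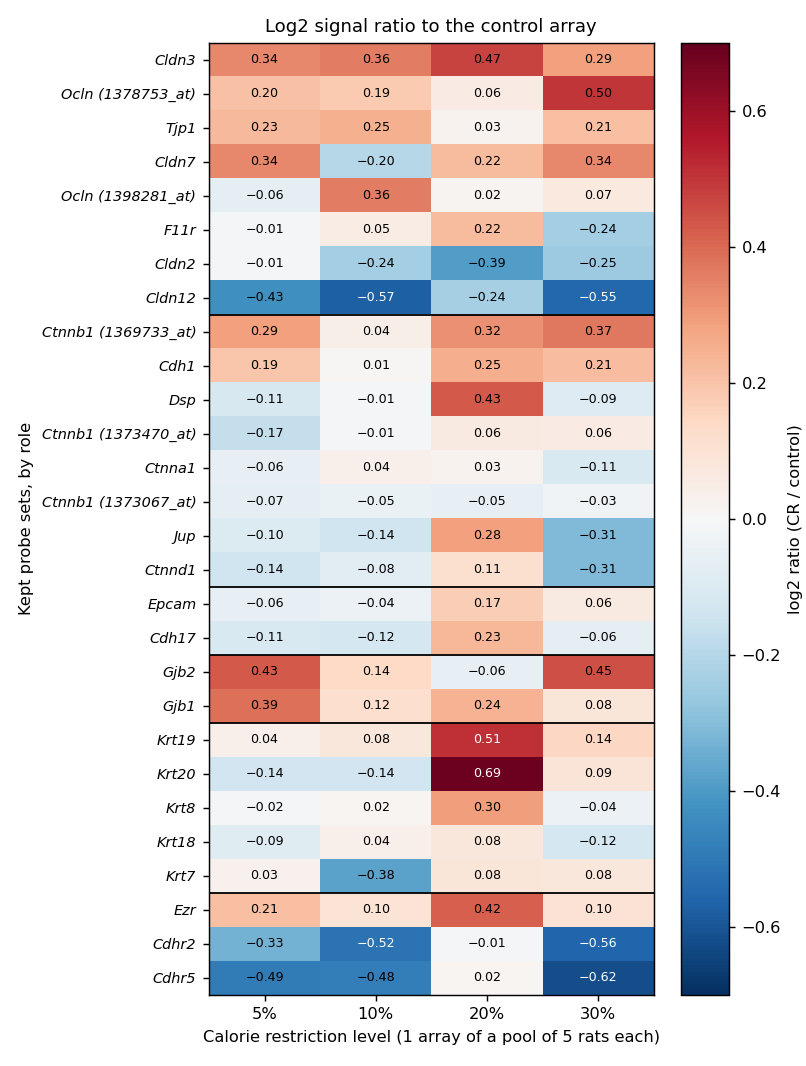
Heat map of the log2 ratio of each CR array to the control array (columns, 5 to 30% CR) for the 28 kept gene probes (rows, grouped by role). The Affymetrix probe set identifier stands beside the symbol only for Ctnnb1 and Ocln, which have several rows. Most cells lie near 0, the 20% CR column is the warmest for the keratins, and no cell reaches 1 in either direction.

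The median log2 ratio of the 28 gene probes was −0.04 at 5%, 0.00 at 10%, 0.14 at 20% and 0.06 at 30% CR, against 0.00, 0.01, −0.03 and 0.00 for all kept gene probes. The median range of a gene probe over the 5 arrays was 0.42 on the log2 scale (1.34-fold), against 0.43 for all kept gene probes. Most of the 28 are bright. The 26 of them in the top quartile of signal had a median range of 0.42, against 0.36 for all gene probes in that quartile. The narrowest range of the 28, 0.07, was that of a gene probe of Ctnnb1 (1373067_at) and the widest, 0.82, was that of Krt20.

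**Figure D2:**
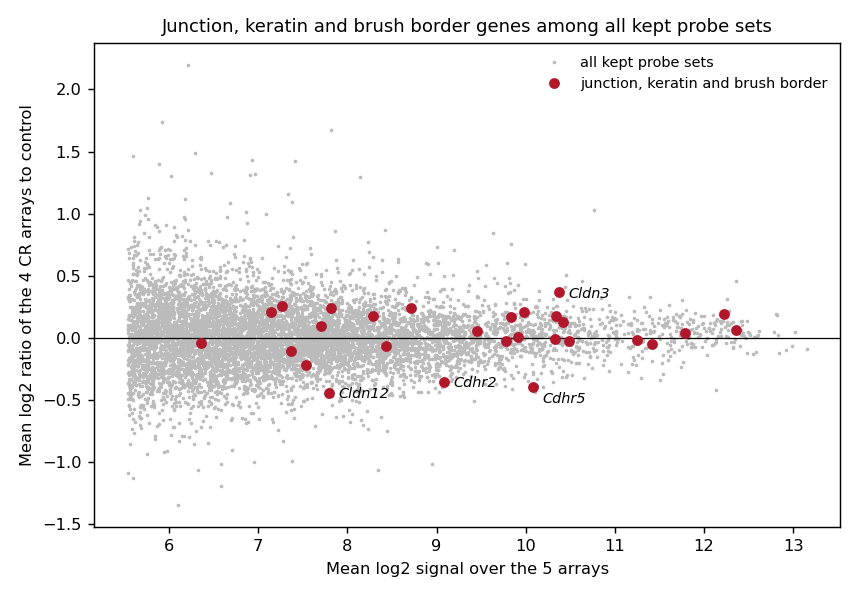
Mean log2 ratio of the 4 CR arrays to the control array (vertical axis) against the mean log2 signal of the 5 arrays (horizontal axis) for all kept gene probes (grey points) and the 28 junction, keratin and brush border gene probes (coloured points). The coloured points lie between −0.45 and 0.36, with Cldn3 at the top and Cldn12 at the bottom.

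Among the tight junction genes, Cldn3 was the highest relative to control and Cldn12 the lowest. Cldn3, a claudin that seals the space between cells, had signals of 1086 in the control, 1372 at 5%, 1393 at 10%, 1508 at 20% and 1327 at 30% CR. The control array was the lowest of the 5. The signal averaged 1400 ± 76.8 under CR (SD, n = 4 arrays) against 1086 in the control, a mean log2 ratio of 0.36 ± 0.13 (SE), or 1.29-fold, with a limma adjusted p of 0.974. Cldn12, tied to calcium passage between cells in mouse intestine, had signals of 284.7 in the control, 211.8 at 5%, 191.9 at 10%, 241.9 at 20% and 194.3 at 30% CR. The control array was here the highest of the 5. The signal averaged 210 ± 23.1 under CR (SD, n = 4 arrays) against 284.7 in the control, with a mean log2 ratio of −0.45 ± 0.18 (SE), or 0.734-fold, and a limma adjusted p of 0.988. The unadjusted p of Cldn3 was above 0.05 in a fit without the intensity trend, and that of Cldn12 without the 5%, the 10% or the 30% CR pool. A lower signal in a bulk sample may come from fewer cells of a type or from less RNA per cell, which cannot be told apart here.

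The other kept claudins had smaller ratios. Cldn2, which forms a channel for small cations and water, had signals of 209.2 in the control, 207.6 at 5%, 177.7 at 10%, 159.4 at 20% and 175.6 at 30% CR. It was lower than control on all 4 CR arrays, with a mean log2 ratio of −0.22 ± 0.18 (SE; limma adjusted p = 0.988). Cldn7, a claudin of the lateral membrane, had signals of 1173 in the control, 1484 at 5%, 1022 at 10%, 1367 at 20% and 1483 at 30% CR. The 10% CR array lay below the control and the other 3 above it, and the mean log2 ratio was 0.17 ± 0.20 (SE).

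Occludin, the first transmembrane protein found at tight junctions, was measured by 2 gene probes. The brighter, 1378753_at, had signals of 367 in the control, 422.3 at 5%, 417.3 at 10%, 382.1 at 20% and 518.9 at 30% CR. The 30% CR array was the highest and the control the lowest, and the slope was 0.12 ± 0.06 log2 units for each 10% restriction (SE; limma adjusted p = 0.998), the smallest trend p of the 28. The other Ocln gene probe, 1398281_at, had its highest signal, 253.3, at 10% CR and lay between 189.2 and 207.2 on the remaining arrays. The 2 gene probes therefore differed in which array was highest. Tjp1, the scaffold protein ZO-1, had signals of 282.3 in the control and 287.3 to 335.7 under CR, with a mean log2 ratio of 0.18 ± 0.15 (SE). F11r, the junctional adhesion molecule JAM-A, had 816.4 to 1124 under CR and 962.6 in the control, with a mean log2 ratio of 0.01 ± 0.17 (SE).

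**Figure D3:**
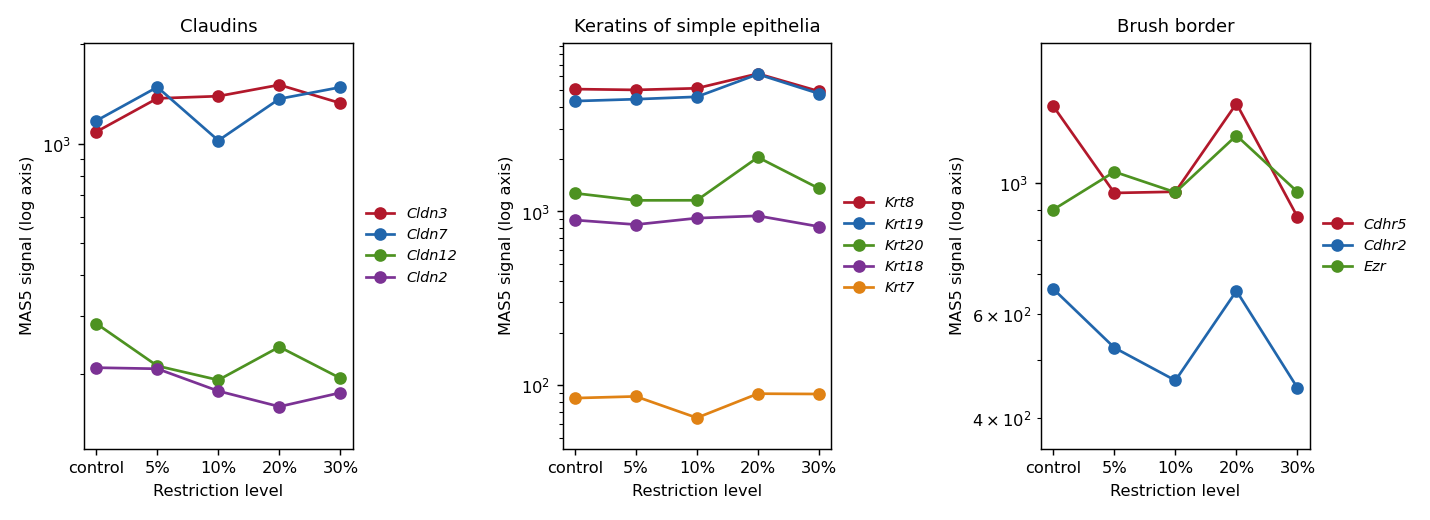
Signal on each array (vertical axis, MAS5 signal, log scale; horizontal axis, restriction in percent at even spacing) for the claudins, the keratins of simple epithelia and the brush border genes. For Cldn3 the control array is the lowest point and for Cldn12 the highest, and the Cdhr2 and Cdhr5 curves are low at 5, 10 and 30% CR.

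The remaining claudin gene probes, 8 of 7 genes, were below the filter. Cldn1 had signals of 1.8 in the control and 3.2 to 15.4 under CR, and those of Cldn10, Cldn11, Cldn16 and Cldn19 were likewise low. Cldn4 and Cldn5 were the closest to the filter, with a mean log2 signal of 5.30 for Cldn4 and 5.35 for Cldn5 against the limit of 5.54, while Krt7, the nearest above it, had 6.36. Cldn4 had signals of 48.1 in the control, 40 at 5%, 22.9 at 10%, 58.4 at 20% and 36.5 at 30% CR. Of the 24 gene probes not kept, all but those of Cldn4 and Cldn5 were below a signal of 46.5 on all 5 arrays, and their ratios are not interpreted.

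The adherens junction genes varied little. Cdh1, E-cadherin, had signals of 832.6 in the control, 952.5 at 5%, 836.1 at 10%, 992.3 at 20% and 965.9 at 30% CR, a mean log2 ratio of 0.17 ± 0.14 (SE). The 10% CR array was close to the control and the other 3 lay above both. Ctnna1, alpha-catenin, which connects the complex to actin, was between 1348 and 1492 under CR and 1453 in the control, with a mean log2 ratio of −0.03 ± 0.13 (SE). Ctnnb1, beta-catenin, both a junction protein and the effector of Wnt signalling, was measured by 4 gene probes. On the brightest, 1373067_at, the signals were 2806 in the control, 2678 at 5%, 2719 at 10%, 2702 at 20% and 2758 at 30% CR, a mean log2 ratio of −0.05 ± 0.12 (SE). The mean log2 ratio was −0.01 on 1373470_at and 0.25 ± 0.19 (SE) on the dimmer 1369733_at, and 1375284_at was at 0.7 to 12.5. The kept gene probes of Ctnnb1 thus did not share a sign. Ctnnd1, p120-catenin, which holds cadherin at the cell surface, had 141.2 to 189.1 under CR and 174.8 in the control, with a mean log2 ratio of −0.10 ± 0.19 (SE).

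The desmosomal genes had their highest signal on the 20% CR array. Dsp, desmoplakin, which ties keratin filaments to the desmosome, had signals of 679.6 in the control, 628.3 at 5%, 675.2 at 10%, 916.3 at 20% and 639 at 30% CR. Jup, plakoglobin, the catenin shared by desmosomes and adherens junctions, had signals of 358.4 in the control, 335.4 at 5%, 324.9 at 10%, 436.5 at 20% and 289.7 at 30% CR. Both were highest at 20% CR and below the control at the other 3 levels. Their mean log2 ratios were 0.05 ± 0.20 for Dsp and −0.06 ± 0.21 for Jup (SE).

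Epcam and Cdh17, adhesion proteins of the lateral membrane, showed the same array as highest. Epcam, which stabilizes claudins at the lateral surface, had signals of 3462 in the control, 3328 at 5%, 3366 at 10%, 3899 at 20% and 3616 at 30% CR. Cdh17, the liver-intestine cadherin, had 2446 in the control, 2269 at 5%, 2247 at 10%, 2875 at 20% and 2345 at 30% CR. Their mean log2 ratios were 0.03 ± 0.14 for Epcam and −0.01 ± 0.16 for Cdh17 (SE).

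Among the connexins, Gjb1 and Gjb2 were kept and Gjb5 and Gjb6 were at signals of 0.4 to 7.4. Gjb1, connexin 32, had signals of 126.3 in the control, 165 at 5%, 137 at 10%, 149.3 at 20% and 133.8 at 30% CR. Gjb2, connexin 26, had 197.5 in the control, 266 at 5%, 217.3 at 10%, 190 at 20% and 270.4 at 30% CR. Gjb1 was above the control at all 4 levels and Gjb2 at 3 of them, with the 20% CR array the lowest for Gjb2. Their mean log2 ratios were 0.21 ± 0.19 for Gjb1 and 0.24 ± 0.21 for Gjb2 (SE; limma adjusted p = 0.988 for both).

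All 5 keratins of simple epithelia had their highest signal on the 20% CR array. Krt20, a keratin of differentiated villus cells, had signals of 1273 in the control, 1158 at 5%, 1159 at 10%, 2049 at 20% and 1356 at 30% CR. The 20% CR array stood 0.69 above the control on the log2 scale, while the 5% and 10% CR arrays lay below it. Krt19 had signals of 4314 in the control, 4424 at 5%, 4566 at 10%, 6157 at 20% and 4762 at 30% CR, all 4 CR arrays above the control. Krt8, the type II partner of Krt18 and Krt20, had 5056 in the control, 5003 at 5%, 5112 at 10%, 6204 at 20% and 4914 at 30% CR. Krt8 was 0.30 above the control at 20% CR and within 0.05 of it at the other 3 levels. Krt18 had 818.7 to 943.5 under CR and 892.3 in the control, 0.08 above it at 20% CR, and Krt7, a keratin of ducts, had 65 to 89.5 under CR and 84.4 in the control. For both, the 20% CR array was highest by little. Krt18 had 943.5 at 20% and 915.5 at 10% CR, and Krt7 had 89.5 at 20% and 89.1 at 30% CR. The mean log2 ratios were 0.13 ± 0.27 for Krt20, 0.19 ± 0.18 for Krt19, 0.06 ± 0.16 for Krt8, −0.02 ± 0.14 for Krt18 and −0.05 ± 0.24 for Krt7 (SE).

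The other 11 keratin genes on the array, 13 gene probes, were below the filter, with signals of 0.8 to 33.1. Among them are keratins of the epidermis, such as Krt1, Krt5, Krt10 and Krt14, and Krt12 of the cornea. Their low signals went with the low markers of stratified squamous epithelium given above.

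**Figure D4:**
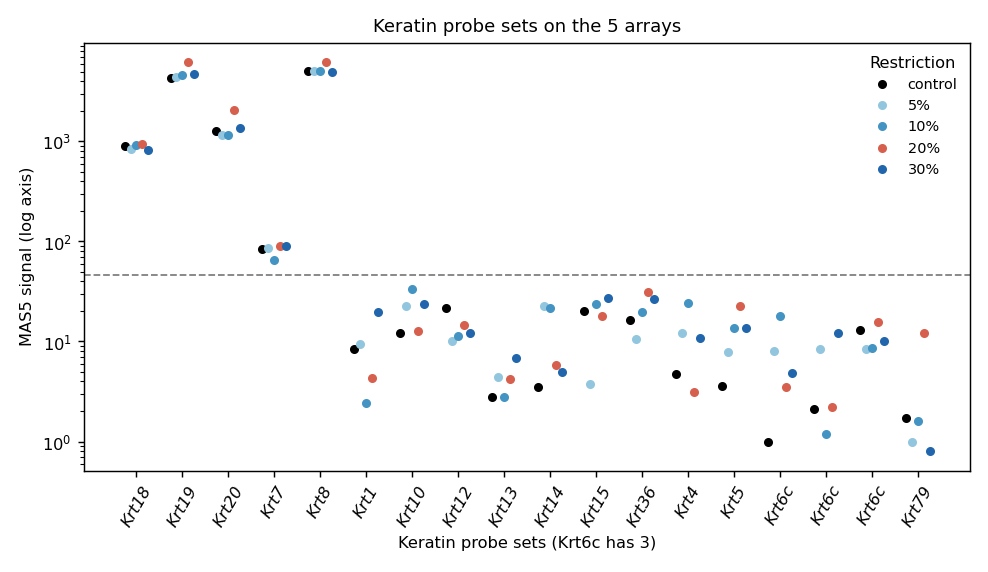
Signal of each keratin gene probe (horizontal axis, the 5 of simple epithelia first, then the 13 of other epithelia) on the 5 arrays (vertical axis, MAS5 signal, log scale; points coloured by restriction level; dashed line, the filter at a signal of 46.5). The 5 of simple epithelia lie above the line on every array with the 20% CR point the highest, and the other 13 lie below it at 0.8 to 33.1.

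The DNA just upstream of 5 start sites is shown because these genes held the outer values: Krt20 had the widest range, Cldn3 the highest mean ratio, Cldn12 the lowest, and Cdhr2 and Cdhr5, described next, had their 3 lowest signals on the same arrays. Each sequence is the 250 bases before the start of the gene, 5′ to 3′ on the strand of the gene, from the RefSeq promoter table of build GRCr8, which held 33 of the 45 genes and 19 of the 25 kept. Capitals mark the match to a searched motif.
Krt20 (chr10:84890286-84890535, minus strand): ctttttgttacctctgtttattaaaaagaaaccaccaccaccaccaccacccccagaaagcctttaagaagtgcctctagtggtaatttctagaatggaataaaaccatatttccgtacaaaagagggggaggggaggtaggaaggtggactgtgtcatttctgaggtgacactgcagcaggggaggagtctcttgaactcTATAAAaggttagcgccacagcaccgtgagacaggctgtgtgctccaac
Cdhr2 (chr17:9917699-9917948, minus strand): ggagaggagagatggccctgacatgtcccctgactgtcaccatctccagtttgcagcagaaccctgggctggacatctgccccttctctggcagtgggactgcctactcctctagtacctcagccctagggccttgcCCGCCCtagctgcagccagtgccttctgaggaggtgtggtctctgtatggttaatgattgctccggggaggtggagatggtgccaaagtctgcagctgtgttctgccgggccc
Cdhr5 (chr1:205811093-205811342, minus strand): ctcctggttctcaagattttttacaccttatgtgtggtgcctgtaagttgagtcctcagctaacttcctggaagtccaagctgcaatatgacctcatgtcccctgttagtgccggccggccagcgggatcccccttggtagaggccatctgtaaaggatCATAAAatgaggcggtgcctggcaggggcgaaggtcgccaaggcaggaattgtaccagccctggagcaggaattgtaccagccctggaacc
Cldn3 (chr12:27346548-27346797, minus strand): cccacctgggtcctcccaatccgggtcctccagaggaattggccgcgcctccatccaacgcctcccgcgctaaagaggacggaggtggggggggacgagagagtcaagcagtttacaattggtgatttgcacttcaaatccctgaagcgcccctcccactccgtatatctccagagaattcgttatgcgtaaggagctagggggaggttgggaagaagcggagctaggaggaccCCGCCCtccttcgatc
Cldn12 (chr4:29482060-29482309, plus strand): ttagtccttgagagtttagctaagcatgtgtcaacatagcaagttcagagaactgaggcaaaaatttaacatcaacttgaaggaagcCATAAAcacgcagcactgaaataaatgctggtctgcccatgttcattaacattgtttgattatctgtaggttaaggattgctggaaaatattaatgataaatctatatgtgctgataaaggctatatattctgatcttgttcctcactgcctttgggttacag
The first motif searched was the TATA box, TATAAA, on the strand of the gene only. The other motifs were searched on both strands, and the first of them was the core bound by the intestinal CDX factors, written as TTTATG. The letters CAAAGTCCA stood for the factor HNF4A. The GC box was searched as GGGCGG. No match overlapped another in the 5 windows shown. The Krt20 window held TATAAA from 49 to 44 bases before the start. The Cdhr5 window held the CDX core on the opposite strand, read as CATAAA, from 91 to 86 bases before the start, and the Cldn12 window held it, also opposite to the gene and read as CATAAA, from 163 to 158. The GC box was read as CCGCCC from 113 to 108 bases before the start of Cdhr2 and from 16 to 11 before that of Cldn3. TATAAA was in 3 of the 19 windows (15.8%) against 8.06% of 33469 promoter windows, the CDX core in 3 (15.8%) against 11.4%, CAAAGTCCA in 0 against 0.338%, and GGGCGG in 10 (52.6%) against 30.5%. The windows of Cdhr2 and Cdhr5 shared none of these motifs. A match is a description of the window, not a binding site.

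The brush border cadherins had lower signals than the control at 5, 10 and 30% CR and were close to it at 20% CR. Cdhr5, the mucin-like protocadherin that joins the tips of microvilli, had signals of 1349 in the control, 961.7 at 5%, 966.3 at 10%, 1364 at 20% and 875.8 at 30% CR. Cdhr2, its binding partner on the neighbouring microvillus, had signals of 660.8 in the control, 525.4 at 5%, 462.3 at 10%, 656 at 20% and 449.1 at 30% CR. In both genes the control and 20% CR arrays were close together and above the other 3, with no overlap. This order was picked out after seeing the data, and its share among all kept gene probes is not given here. It was not particular to these genes. The control and 20% CR arrays were also above the other 3 for Cldn12, Ctnnd1, Dsp, Jup and Cdh17. Among the 7 kept gene probes of the enterocyte markers, the same held for Alpi, Anpep and Apob (1388190_at). For Fabp1, Fabp2, Apoa4 and Slc5a1 the control array was instead the lowest. The mean log2 ratio was −0.39 ± 0.21 for Cdhr5 and −0.35 ± 0.20 for Cdhr2 (SE), each with a limma adjusted p of 0.988. Without the 20% CR pool it was −0.53 for Cdhr5, or 0.692-fold (limma adjusted p = 0.293), and −0.47 for Cdhr2, or 0.723-fold (limma adjusted p = 0.433), and both unadjusted p were then below 0.05, as were those of 3.72% of all kept gene probes in the lower direction. Ezr, ezrin, which links the microvillus membrane to actin, ran otherwise, with 901.1 in the control, 1045 at 5%, 964.1 at 10%, 1204 at 20% and 965.7 at 30% CR. It was above the control at all 4 levels, with a mean log2 ratio of 0.21 ± 0.15 (SE; limma adjusted p = 0.988).

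More of these genes had their highest signal on the 20% CR array than on any other array, a count chosen after seeing the data. Of the 28 gene probes, 16 (57.1%) had their highest signal on the 20% CR array, against 21.2% of all kept gene probes. They were those of Cldn3, F11r, Cdh1, Ctnnd1, Dsp, Jup, Epcam, Cdh17, Krt7, Krt8, Krt18, Krt19, Krt20, Ezr and Cdhr5 and 1 of Ctnnb1. Only Cldn2 and Gjb2 (7.14%) had their lowest signal there, against 28.8% of all. The count of 16 was 13 after quantile normalization, when the share of all was 23.7%, and 20 after median centring, when it was 31%. Among gene probes in the top quartile of signal, 15 of the 26 from the 28 were highest there, against 26.7% of all.

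**Figure D5:**
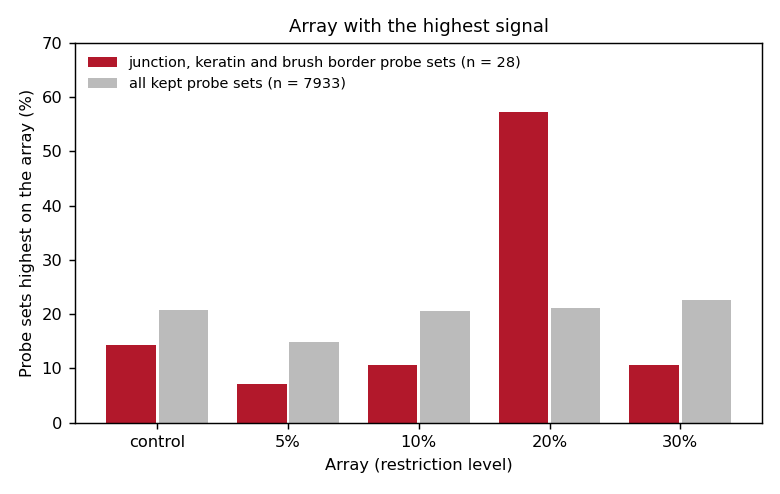
Percent of gene probes with their highest signal on each array (vertical axis, from 0; horizontal axis, restriction in percent) for the 28 junction, keratin and brush border gene probes and for all 7933 kept gene probes. The 20% CR array holds 57.1% of the 28 and 21.2% of all.

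The log2 difference between the 20% CR array and the mean of the other 4 is given as a description with no test, since this array was singled out for its high values and is 1 array. The difference was 0.73 for Krt20, 0.48 for Dsp, 0.45 for Krt19, 0.42 for Jup, 0.41 for Cdhr5 and 0.34 for Cdhr2. It was 0.31 for each of Ezr, Cdh17 and Krt8. It was positive for 22 of the 28 (78.6%, median 0.15), against 44.8% of all kept gene probes (median −0.03).

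The marker lists of the cell types were not tested on this array, and values of some of them are given beside it. The median log2 ratio of the enterocyte markers was 0.36 at 5%, 0.21 at 10%, 0.67 at 20% and 0.08 at 30% CR. That of the fibroblast markers, with 8 gene probes kept, was −0.10, 0.01, −0.58 and −0.47 at these levels, and that of the goblet cell markers −0.07, −0.06, 0.10 and −0.19. The smooth muscle markers had medians of −0.25, 0.15, −0.16 and −0.28, and the crypt and cycling cell markers 0.24, 0.13, −0.00 and 0.25. The Paneth cell markers, with 3 gene probes kept, had 0.17, 0.93, 0.26 and 0.14. The 6 gene probes of exocrine pancreas markers, of which 1 was kept, had a summed signal of 655.7 in the control and 247.4 to 328.5 under CR. The control array is part of every ratio, and the part of this difference in the ratios was not tested. The enterocyte median was thus highest and the fibroblast median lowest at 20% CR, while the smooth muscle median at 20% CR lay within the range of the other levels. The enterocyte list was itself split, with a positive mean log2 ratio in 4 kept gene probes and a negative one in 3. Alpi, Anpep and Apob (1388190_at) were below the control at 5, 10 and 30% CR and above it at 20% CR. Fabp1, Fabp2, Apoa4 and Slc5a1 were above the control at all 4 levels. The part of cell composition and of the higher actin 3'/5' ratio in the values of the 20% CR array was not tested.

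Beyond the named genes, 5 lists of other junction, brush border and filament genes held 59 kept gene probes, with a positive mean log2 ratio in 32 and a negative one in 27. None passed either test. At an unadjusted limma p below 0.05 for CR against control, 2 of the 59 were higher and 0 lower. Among all kept gene probes, 2.71% were higher and 2.05% lower. By list, the ratio was positive in 7 of 10 gene probes of other tight junction genes, 9 of 14 of adherens junctions and desmosomes, 0 of 1 connexin, 12 of 24 of the brush border and 4 of 10 of intermediate filaments. The 3 lowest mean ratios were those of Espn, Plec and Des. Espn, espin, an actin bundler of the microvillus, had signals of 411.2 in the control, 236.9 at 5%, 213 at 10%, 407.5 at 20% and 221.4 at 30% CR, a mean log2 ratio of −0.66 ± 0.31 (SE). As with Cdhr2 and Cdhr5, the control and 20% CR arrays lay together above the other 3. Plec, plectin, a linker of intermediate filaments, averaged −0.41, and Des, desmin of muscle, also on the smooth muscle list, −0.39. Plec was lowest at 30% CR, with a log2 ratio of −0.66. Its slope was −0.17 ± 0.06 log2 units for each 10% restriction (SE; limma unadjusted p = 0.0218, adjusted p = 0.998). Among all kept gene probes, 1.54% fell at an unadjusted limma p below 0.05. The 3 highest were Pdzk1, a scaffold under the apical membrane, at 0.63, Magi3, a scaffold of the tight junction, at 0.61, and Nherf1, which binds ezrin, at 0.48. The log2 ratios of Pdzk1 were uneven, with 0.74 at 5%, 0.52 at 10%, 1.18 at 20% and 0.06 at 30% CR. Magi3 (1387753_s_at) was the only one of the 59 past 0.5 at all 4 levels, against 0.769% of all kept gene probes higher. Its log2 ratios were 0.51, 0.83, 0.52 and 0.60, while its other kept gene probe, 1398866_at, averaged 0.26. Ush1c, harmonin, which anchors Cdhr2 and Cdhr5 inside the microvillus, had 217.6 to 267.7 under CR and 238.2 in the control.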

How the data were processed

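RNA pooled from 5 rats per level was hybridized to a single rat 230A array. For each gene probe the authors deposited the MAS5 signal, an intensity on a linear scale with the mismatch subtracted, from the GeneChip Operating Software. The trimmed mean signal was equal on all arrays (target not given in the sources used here). Detection and change calls are not analysed here. Since there is 1 array per level, no value has a replicate, and the small number of arrays limits the precision.

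Signals were floored at 0.1 and taken to log2. Of 15923 gene probes, 57 array controls were left out. Of the rest, 12783 carry 1 gene symbol in the platform annotation, 312 several and 2771 none. The symbols of all 52 gene probes described matched the RefSeq gene table of build GRCr8 and 0 were changed. Gene probes whose log2 signal averaged at least 5.54, the median over all, were kept.

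The 4 CR pools were set against the control pool, and a trend over restriction percent was fitted, with limma 3.58.1 in R 4.3.3 (lmFit and eBayes two-sided and with an intensity trend; adjustment by Benjamini-Hochberg over 7933 gene probes, threshold 0.05). The CR levels stood in for replicates (3 residual degrees of freedom), and the control was assumed to vary like them. The results were recomputed with median centring, with quantile normalization, with a constant of 13 added, with no filter, a filter at the top quartile, no intensity trend, 1 gene probe per gene and each pool left out.

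Gene probes were named when among the 6 highest or 6 lowest mean ratios or the 3 smallest trend p in either direction, and for each listed gene on its brightest kept gene probe. From the lists of other genes, the 3 highest and 3 lowest were named. The genes and lists were chosen with earlier results of these data known. Magi3 1398866_at and Ush1c were added after their values were seen.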

Additional observations from a re-analysis of the deposited data

How the results depend on the processing

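No paired analysis was possible because each diet had rats of its own. None of the 28 kept gene probes described passed an adjusted test of CR against control or of the trend under any alternative run, while 3 of all 7933 passed that of CR against control without the 30% CR pool. With no filter, 4 of 52 gene probes were higher at an unadjusted limma p below 0.05 (3.33% of all 15866), 4 were higher (4.37% of all) and 2 lower (2.79% of all) by 0.5 at all 4 levels, and a log2 ratio of 1 was passed by 7 higher and 4 lower at 5%, 8 and 4 at 10%, 6 and 4 at 20%, and 8 and 3 at 30% CR (7.22 to 9.02% of all in each direction and level). These counts take in the 24 gene probes below the filter. Without the intensity trend, 0 were higher at an unadjusted p below 0.05. With 1 gene probe per gene, the median log2 ratio at 30% CR was −0.025. The cause of the other changes was not tested.

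Leaving out each pool in turn gave 0 to 3 gene probes lower under CR at an unadjusted p below 0.05, with 3 (Cdhr5, Cdhr2 and Cldn12) without the 20% CR pool (3.72% of all) and 0 without the 5%, 10% or 30% CR pool. Rising trends numbered 0 to 5, with 5 (Krt19, Krt20, Dsp, Cldn3 and Ezr) without the 30% CR pool (2.81% of all) and 1 (Ocln) without the 20% CR pool (3.13% of all). Falling trends numbered 0 to 2, with 2 (Cdhr5 and Cdhr2) without the 20% CR pool (3.14% of all). The median of the mean ratios lay between −0.041, without the 20% CR pool, and 0.093, without the 30% CR pool. For 26 named gene probes, 181 of 182 mean ratios moved by less than the spread between levels, the exception being Ctnnb1 (1373067_at), at −0.08 after quantile normalization, and 14 changed sign.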
